A study of Drosophila melanogaster with 12 samples.

Results

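The genes examined were 40 translation initiation factor genes of Drosophila melanogaster, out of 11981 genes that had a probe set with a single gene symbol. A gene was included when its symbol began with eIF and a digit from 1 to 6. Where it had several probe sets, the one with the highest mean over the 12 arrays stood for it. Most of the genes had 1 probe set, eIF4B had 4 and eIF4EHP had 2, which made 44 in all. A further 4 initiation factor genes of the reference annotation were not analysed here. The rule picked genes by name, although the family was chosen for study with earlier results of these data known.

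Initiation factors bring the initiator methionyl-tRNA and the mRNA to the small ribosomal subunit, guide the search for the start codon and let the large subunit join. The initiator tRNA arrives on eIF2, which eIF2B recharges with GTP, and this exchange is the step that cells slow down under stress by phosphorylating eIF2. The mRNA arrives through eIF4F, made of the cap-binding protein eIF4E, the scaffold eIF4G and the RNA helicase eIF4A. eIF3 is the large scaffold on the small subunit that holds these parts together. Neurons depend on this machinery both in the cell body and for local protein synthesis near synapses.

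The study set dopaminergic against cholinergic neurons of the adult brain, from controls and from parkin null mutants. Parkin is a ubiquitin ligase of mitochondrial quality control, and mutations of the human gene underlie a familial parkinsonism. Each of the 4 groups had 3 arrays, and each array carried cDNA amplified from a pool of 115 neurons sorted by green fluorescence from at least 15 brains. The labels give neither the parkin alleles, the controls' background, the sex and age of the flies nor the promoter that drove the fluorescent protein. All groups shared a warm trypsin digestion before the sort. Values are log2 intensities per probe set, so a difference of 1 is a doubling of intensity. In such pools fewer cells of a type and less RNA per cell cannot be told apart.

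The arrays differed in ways that touch these genes. A probe set at a log2 value of 8 or more is called bright here. Over all 18769 probe sets the bright share ran from 8.67% to 17.6%, and it was lowest on dopaminergic mutant replicate 3. That array had the highest median (6.30, against 5.59 on cholinergic mutant replicate 3, the lowest), and 28.8% of all probe sets had their highest value on it. It had lost 75.8% of the probe sets that were bright on at least 8 of the other 11 arrays, against 9.79% to 34.8% on the other arrays. On cholinergic mutant replicate 3, 40.5% of all probe sets had their lowest value. Of 5 markers of dopaminergic neurons, the tyrosine hydroxylase gene ple measured 10.39 to 10.57 in dopaminergic controls, 7.01, 10.94 and 4.36 on the dopaminergic mutant arrays and 3.61 to 4.18 on the cholinergic arrays. The summed level of the 5 ran from 13.59 to 14.03 in dopaminergic controls, 8.25 to 13.92 in dopaminergic mutants, 9.51 to 11.18 in cholinergic controls and 9.85 to 11.63 in cholinergic mutants. The vesicular transporter gene Vmat measured 12.71, 12.90 and 5.19 in dopaminergic mutants, and the decarboxylase gene Ddc 11.38, 11.19 and 6.32. DAT measured 9.77, 11.48 and 5.54 there (9.58 to 11.33 in dopaminergic controls). Fer2 measured 6.84, 9.59 and 6.92 there (9.59 to 10.82 in dopaminergic controls). Replicate 1 was thus low for ple and Fer2 and not for Vmat, Ddc and DAT. Ddc had a mean of 10.49 in cholinergic mutants, above its 9.63 in dopaminergic mutants. The cholinergic gene ChAT did not separate the sorts, and VAChT overlapped between them in controls but not in mutants (5.49, 8.16 and 4.87 in dopaminergic, 10.03, 9.71 and 10.88 in cholinergic mutants). The summed level of 3 neuronal markers ran from 10.75 to 12.92 in dopaminergic mutants and from 11.85 to 13.16 in the other groups, and on dopaminergic mutant replicate 3 elav measured 6.27, brp 5.31 and nSyb 10.65, the last close to its 10.70 to 11.61 elsewhere. The summed level of 6 glial markers overlapped between all groups (7.14 to 10.34 in dopaminergic controls, 7.66 to 12.05 in dopaminergic mutants, 8.21 to 11.12 in cholinergic controls and 9.42 to 10.53 in cholinergic mutants). The part of these array differences in the results below was not tested. Values without dopaminergic mutant replicate 3 are given beside many of the main results it moved.

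No initiation factor gene was bright on all 12 arrays (0.773% of all probe sets were). eIF2Balpha, eIF3a, eIF3j, eIF4A, eIF4B and eIF5 were bright on 9 to 11 arrays, 20 genes on 1 to 8 arrays and 14 on none. Of all probe sets, 4.81% were bright on 9 to 11 arrays, 45.0% on 1 to 8 and 49.4% on none. Many genes of the middle class were near the array median on most arrays and bright on a few. eIF2A, for example, measured 10.87 in dopaminergic control replicate 1 and 5.74 to 7.30 on the other 11 arrays. The spread of a gene over the 12 arrays ran from 1.53 log2 units for eIF4E3 to 8.62 for the scaffold gene eIF4G1.

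**Figure D1:**
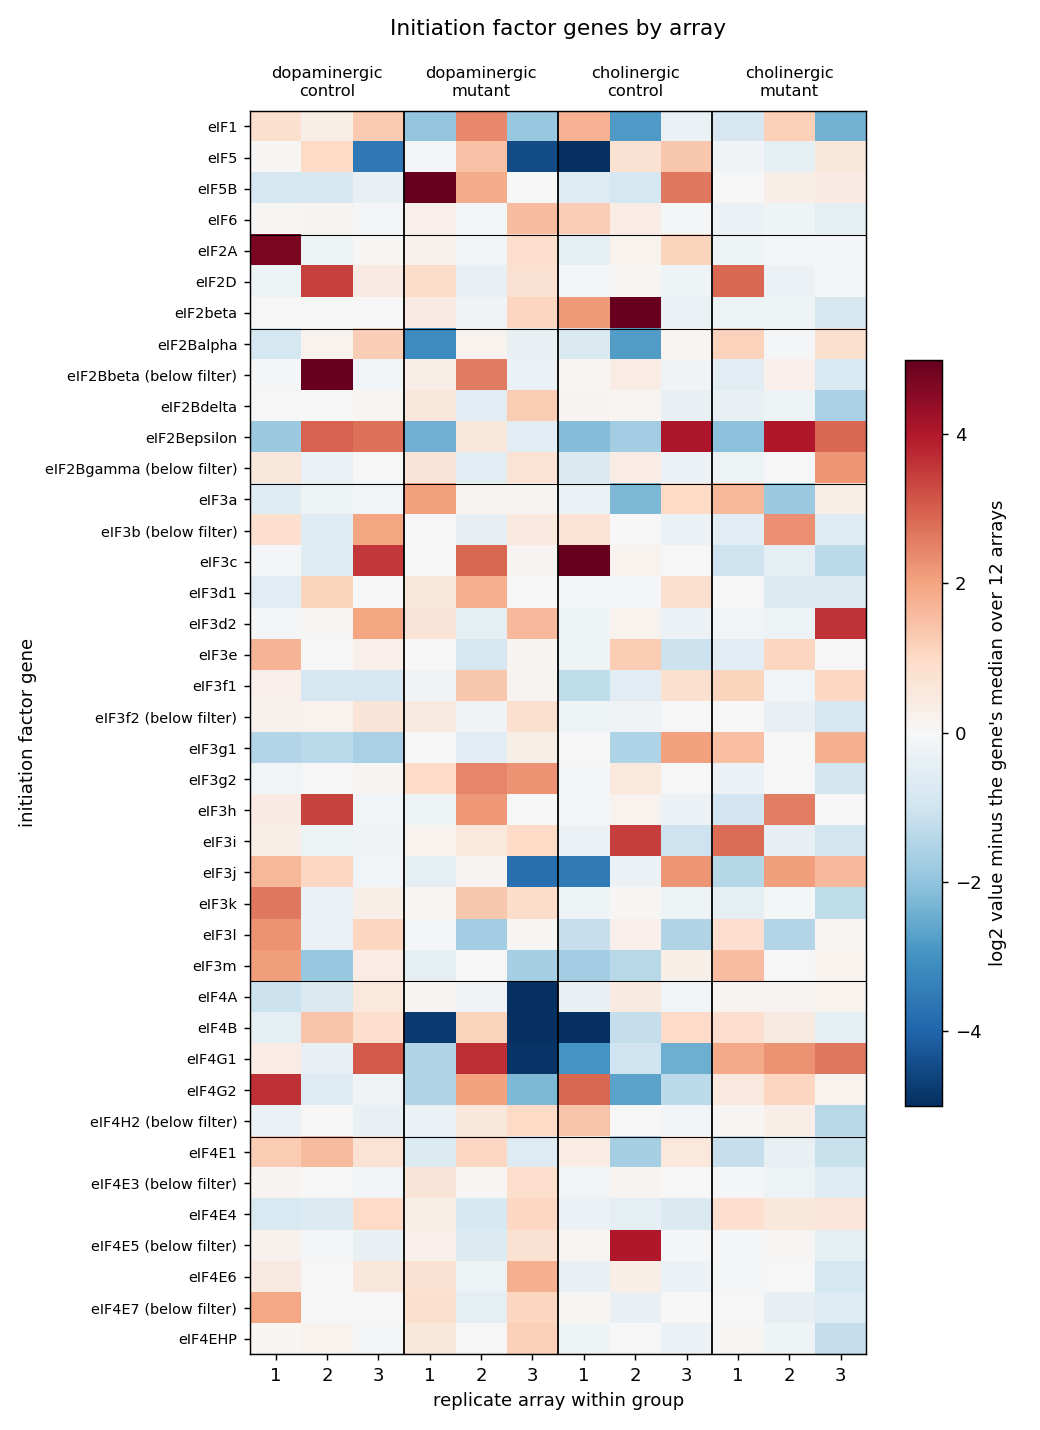
Deviation of each of the 40 initiation factor genes (rows, grouped by role) from its own median over 12 arrays (columns, 3 replicates per group), in log2 units, with colours ending at 5 in either direction. Genes marked as below the filter were not tested. Single dark cells, such as eIF2A in dopaminergic control replicate 1 and eIF4A in dopaminergic mutant replicate 3, show how often 1 array differed from its replicates.

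The number of bright initiation factor genes varied between replicates as well. Of the 40 genes, 14, 12 and 11 were bright on the dopaminergic control arrays and 6, 15 and 4 on the dopaminergic mutant arrays. The cholinergic control arrays had 7, 6 and 12, and the cholinergic mutant arrays 12, 11 and 12. Dopaminergic mutant replicate 3 had lost 5 of 7 genes that were bright on at least 8 other arrays, namely eIF3j, eIF3m, eIF4A, eIF4B and eIF5. Cholinergic control replicate 1 had lost 4 of 7 (eIF3j, eIF3m, eIF4B and eIF5), although it had lost only 14.2% of all such probe sets.

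**Figure D2:**
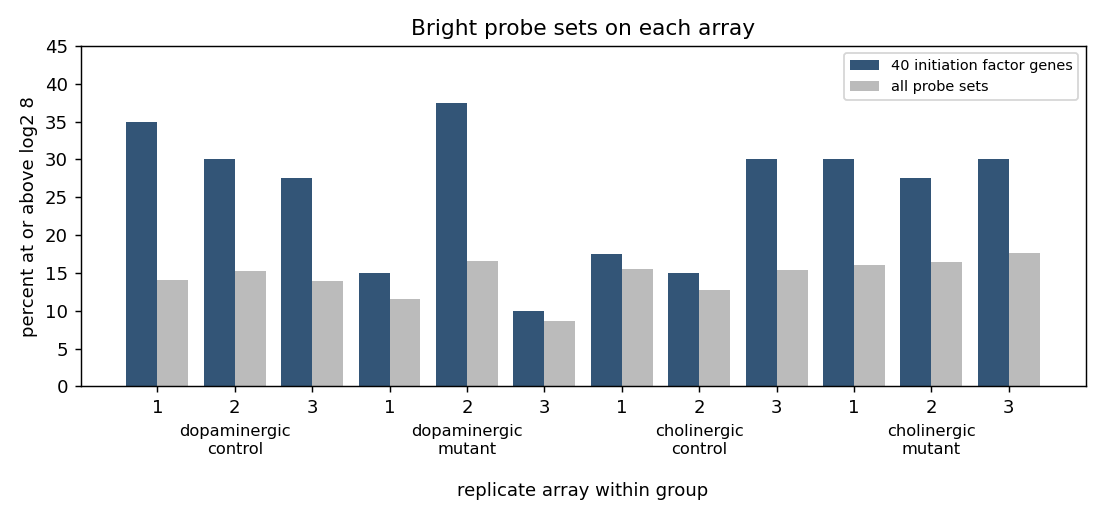
Percent of the 40 initiation factor genes (dark bars) and of all 18769 probe sets (grey bars) at or above a log2 value of 8, on each of the 12 arrays. The lowest and highest shares of the genes, 4 and 15 of 40, lie within 1 group, the dopaminergic mutants.

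A gene was tested when its probe set lay at or above the median of its own array on at least 3 arrays. That held for 32 of the 40 genes, 14 of 16 of eIF3, 3 of 5 of eIF2B, 4 of 7 of the eIF4E genes with eIF4EHP, 4 of 5 of the eIF4A, eIF4B, eIF4G and eIF4H genes, and all others. The 8 genes not tested were eIF2Bbeta, eIF2Bgamma, eIF3b, eIF3f2, eIF4E3, eIF4E5, eIF4E7 and eIF4H2. With limma over 12460 probe sets, no initiation factor gene passed an adjusted p of 0.05 in any of 7 comparisons. The differences named below are therefore values that did not pass, given with their standard errors (SE).

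The first comparison asked what parkin loss did in dopaminergic neurons, the type lost in Parkinson's disease. Of 32 tested genes 14 measured higher and 18 lower in mutants, with a median log2 difference of −0.12, against 0.18 over all probe sets. The medians were −0.09 and −0.02 without dopaminergic mutant replicate 3. The title code as a block sets that array aside too, since no other array carried its letter. With this block 18 genes measured higher and 14 lower, with a median of 0.01. None passed (0.00% of all probe sets did, limma), and 2 had an unadjusted p under 0.05 (4.49% of all probe sets did), 2 higher (eIF3g2 and eIF5B, against 1.61%) and 0 lower (against 2.89%). Mutants and controls did not overlap for 4 genes, all higher, namely eIF3a, eIF3g1, eIF3g2 and eIF5B, against 6.10% of all probe sets. No gene was lower without overlap (2.90% of all probe sets). The same 4 genes did not overlap without dopaminergic mutant replicate 3, where 8.8% of all probe sets were higher without overlap.

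eIF3g2, which encodes a copy of the RNA-binding subunit g of eIF3, had the smallest p of the 32 genes. It measured 5.93, 6.05 and 6.20 in dopaminergic controls and 7.03, 8.49 and 8.31 in dopaminergic mutants. In cholinergic controls it measured 5.99, 6.60 and 6.04, and in cholinergic mutants 5.79, 6.07 and 5.15. The dopaminergic mutants were thus the only group above 7 on every array, and the other 3 groups overlapped. The difference in dopaminergic neurons was 1.89 ± 0.46 (95% interval 0.87 to 2.90; limma adjusted p = 0.779) and 1.70 without dopaminergic mutant replicate 3. Among arrays whose titles carry the same code letter, it measured 6.05 in the control and 7.03 in the mutant with D, and 6.20 and 8.49 with E.

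Its paralog eIF3g1 was also separated between dopaminergic mutants and controls, and cholinergic arrays lay both above and below its dopaminergic mutants. It measured 5.67, 5.76 and 5.50 in dopaminergic controls and 7.11, 6.55 and 7.43 in dopaminergic mutants, a difference of 1.38 ± 0.82 (adjusted p = 0.935). In cholinergic controls it measured 7.15, 5.59 and 9.18 and in cholinergic mutants 8.65, 7.15 and 8.92. The cholinergic groups overlapped, and the difference between them was 0.93 ± 0.82.

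eIF5B, the GTPase that joins the large subunit to the small one, measured 5.29, 5.36 and 5.80 in dopaminergic controls and 11.66, 8.01 and 6.19 in dopaminergic mutants. The 3 mutant arrays were above the controls but far apart. On replicate 3 its 6.19 lay below that array's median of 6.30, and the controls lay below their array medians (5.76 to 5.88). The difference was 3.13 ± 1.23 (limma adjusted p = 0.935). It was 1.62 without dopaminergic mutant replicate 1 and 4.35 without replicate 3. In cholinergic neurons eIF5B measured 5.50, 5.29 and 8.77 in controls and 6.12, 6.50 and 6.55 in mutants, and the groups overlapped. With array weights, in which dopaminergic mutant replicate 1 had a weight of 4.56 against 0.28 and 0.41 for replicates 2 and 3, eIF5B alone passed (5.55, adjusted p = 0.0181), among 524 probe sets called.

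eIF3a, the largest core subunit of eIF3, was brighter in dopaminergic mutants by 1.10 ± 1.09. It measured 8.29, 8.67 and 8.79 in controls and 10.98, 9.05 and 9.03 in mutants. Replicate 1 of the mutants stood apart from the other two.

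In the other direction, eIF4B, a cofactor of the helicase eIF4A, measured 10.46, 12.36 and 11.76 in dopaminergic controls and 6.14, 12.05 and 5.75 in dopaminergic mutants. Replicate 2 of the mutants lay within the control range, and the other mutant arrays lay below it. The difference was −3.55 ± 1.88 (limma adjusted p = 0.935) and −2.43 without dopaminergic mutant replicate 3. The other probe sets of eIF4B gave −2.08, 1.30 and −2.26, so they did not share a sign.

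The genes around the helicase and the scaffold, eIF4A, eIF4B, eIF4G1 and eIF4G2, measured lower in dopaminergic mutants in 4 of 4 cases, with a median of −1.75. The count was 2 of 4 and the median −0.31 without dopaminergic mutant replicate 3. On the dopaminergic mutant arrays eIF4A measured 11.24, 10.95 and 5.12, against 10.02, 10.40 and 11.64 in controls. Its difference was −1.58 ± 1.36 with that array and 0.41 without it. eIF4A was low on that array alone of the 12, where the neuronal markers elav and brp were low too and nSyb was not.

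**Figure D3:**
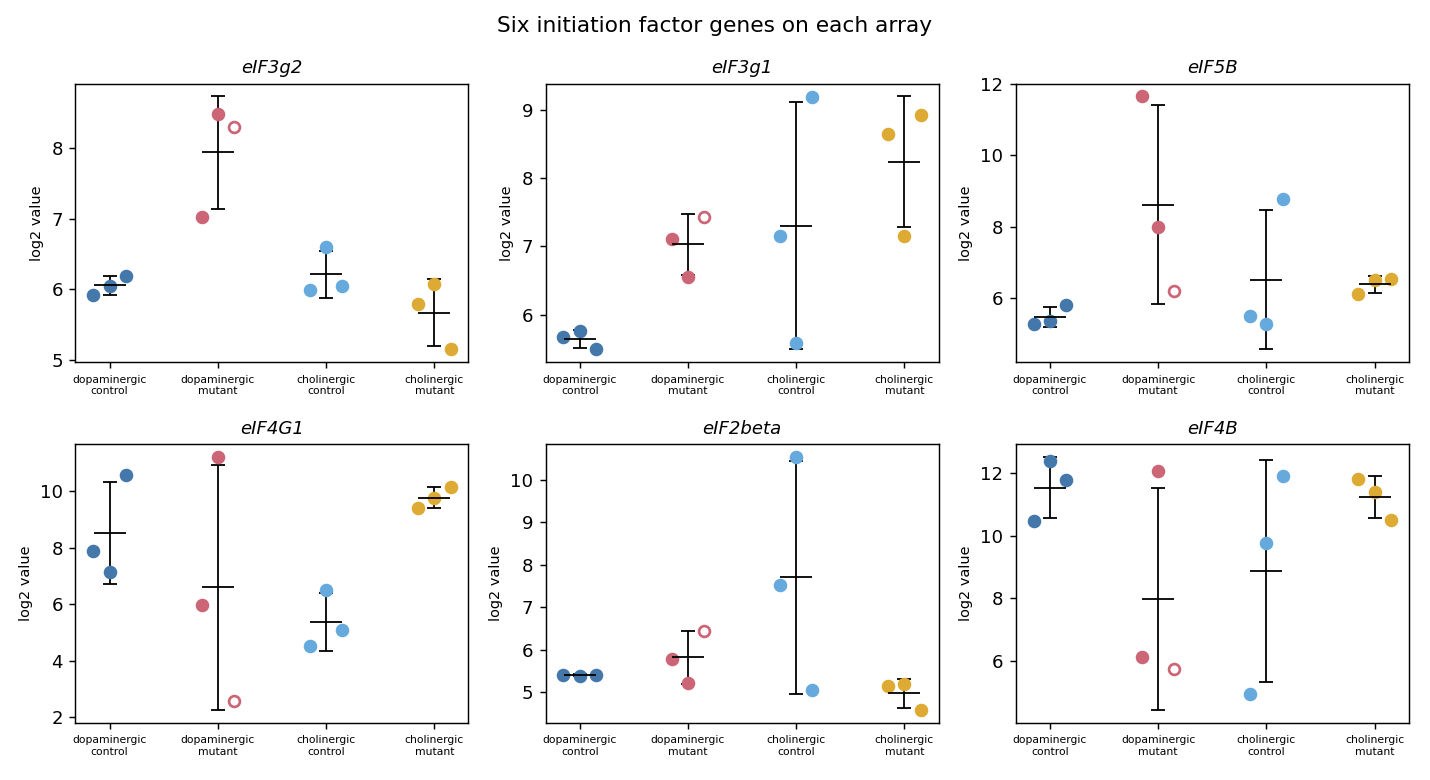
Log2 values of 6 initiation factor genes on each array, with group mean and SD (bars, n = 3). The hollow point is dopaminergic mutant replicate 3. For eIF3g2 all 3 dopaminergic mutant arrays lie above all other arrays (7.03 to 8.49 against at most 6.60), while eIF4G1 and eIF4B spread over most of their range within a group.

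In cholinergic neurons, 18 of 32 genes measured higher and 14 lower in mutants, with a median of 0.36, against −0.17 over all probe sets. With the title code as a block they split 16 to 16, with a median of −0.03. None passed (0.0482% of all probe sets did, limma). An unadjusted p under 0.05 was found for 2, eIF4G1 higher (2.87% of all probe sets) and eIF2beta lower (1.70%), 4.57% together. Without dopaminergic mutant replicate 3 the differences stayed the same but their SE changed. Then 3 genes were under it, with eIF6, lower, as the third (4.65% of all probe sets). Groups did not overlap for 2 genes that were higher, eIF4E4 and eIF4G1 (3.67% of all probe sets), and for 2 that were lower, eIF3c and eIF6 (8.26%).

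eIF4G1, the scaffold of eIF4F, measured 4.54, 6.51 and 5.08 in cholinergic controls and 9.40, 9.76 and 10.16 in cholinergic mutants. It was bright on all 3 mutant arrays and on no control array. The difference was 4.40 ± 1.74 (95% interval 0.58 to 8.22; limma adjusted p = 0.939), or 3.33 with the title code as a block. Among arrays with the code letter E, the control measured 5.08 and the mutants 9.76 and 10.16. In dopaminergic neurons eIF4G1 measured 7.88, 7.13 and 10.57 in controls and 5.99, 11.22 and 2.60 in mutants, and the mutant arrays spanned more than the controls. Its dopaminergic mean was 6.60 in mutants and 8.53 in controls, and the difference was 0.08 without dopaminergic mutant replicate 3. The large SE of this gene reflects the dopaminergic spread, since all groups shared 1 estimate of it. Its paralog eIF4G2, known in Drosophila for its role in the male germ line, measured 10.94, 5.40 and 6.77 in cholinergic controls and 8.56, 9.15 and 8.25 in mutants (0.95 ± 1.62). In dopaminergic neurons eIF4G2 measured 11.74, 7.44 and 7.91 in controls and 6.56, 10.10 and 5.82 in mutants. Neither neuron type separated its genotypes.

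eIF2beta, a subunit of the complex that carries the initiator tRNA, measured 7.52, 10.53 and 5.06 in cholinergic controls and 5.14, 5.19 and 4.58 in cholinergic mutants. In dopaminergic neurons it measured 5.40, 5.37 and 5.41 in controls and 5.79, 5.21 and 6.45 in mutants. It reached the array median on 3 arrays, the fewest the filter allowed: cholinergic control replicates 1 and 2 and dopaminergic mutant replicate 3. It was bright on 1 array of the 12, cholinergic control replicate 2. The difference in cholinergic neurons was −2.73 ± 1.03 (limma adjusted p = 0.939) and −1.32 without that array. Both high arrays carried the code letter D, which no cholinergic mutant array had. Among arrays with E, the cholinergic control measured 5.06, within the mutants' 5.19 and 4.58.

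Of the other members of the tRNA step, eIF2D, which can deliver tRNA to the ribosome without GTP, measured higher in cholinergic mutants by 0.92 ± 1.01 and lower in dopaminergic mutants by −0.75 ± 1.01. eIF2A, an alternative tRNA carrier known from yeast and human, differed by −0.42 ± 1.07 and −1.19 ± 1.07. Its dopaminergic control mean rested on the single bright array.

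The subunits of eIF2B were measured unevenly. eIF2Balpha, of its regulatory core, measured 9.24, 10.31 and 11.35 in dopaminergic controls and 7.00, 10.31 and 9.75 in mutants. In cholinergic neurons it measured 9.41, 7.35 and 10.22 in controls and 11.27, 10.06 and 10.96 in mutants. These groups overlapped, with differences of −1.28 ± 1.08 and 1.77 ± 1.08. eIF2Bepsilon, the catalytic subunit, was bright on 5 of 12 arrays and lay between 4.61 and 11.03, with at least 1 bright and 1 dim array in 3 of the 4 groups. eIF2Bdelta was bright on none. It measured 5.80, 5.78 and 5.89 in dopaminergic controls, 6.35, 5.22 and 7.04 in dopaminergic mutants, 5.93, 5.89 and 5.40 in cholinergic controls and 5.41, 5.53 and 4.19 in cholinergic mutants. Among the untested subunits, eIF2Bbeta was bright once (10.29 in dopaminergic control replicate 2) and eIF2Bgamma never (at most 7.56).

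The eIF3 genes did not move as a block. Of 14 tested, 7 measured higher and 7 lower in dopaminergic mutants (median −0.02, or 0.13 without dopaminergic mutant replicate 3), and 9 higher and 5 lower in cholinergic mutants (median 0.56). eIF3c, a core subunit, measured 11.50 in cholinergic control replicate 1 and 4.46 to 9.30 elsewhere. It was lower without overlap in cholinergic mutants (5.93 and 5.75 on the other control arrays, against 4.71, 5.25 and 4.46), with a difference of −2.92 ± 1.53. eIF3j, a loosely bound subunit, was bright on 10 arrays and dim on dopaminergic mutant replicate 3 (5.81) and cholinergic control replicate 1 (6.06). Its differences were −2.21 ± 1.56 in dopaminergic neurons, −1.0 without dopaminergic mutant replicate 3, and 1.30 ± 1.56 in cholinergic neurons. eIF3f1, of the subunits shared in kind with the proteasome lid, had a higher mean in mutants of both types (0.92 ± 0.64 and 1.02 ± 0.64). It measured 6.40, 5.30 and 5.30 in dopaminergic controls and 5.97, 7.49 and 6.28 in mutants. In cholinergic neurons it measured 4.88, 5.57 and 6.94 in controls and 7.27, 6.02 and 7.19 in mutants, and the genotypes overlapped in both types. The remaining tested eIF3 genes, eIF3d1, eIF3d2, eIF3e, eIF3h, eIF3i, eIF3k, eIF3l and eIF3m, had differences of −1.57 to 0.60 in dopaminergic neurons, −1.88 to 0.99 without dopaminergic mutant replicate 3, and −0.66 to 1.52 in cholinergic neurons. Of the subunit d genes, eIF3d1 measured 5.05, 6.68 and 5.59 in dopaminergic controls, 6.13, 7.39 and 5.56 in dopaminergic mutants, 5.47, 5.45 and 6.35 in cholinergic controls and 5.57, 4.86 and 4.87 in cholinergic mutants. eIF3d2 measured 5.71, 5.80 and 7.75 in dopaminergic controls, 6.41, 5.30 and 7.37 in dopaminergic mutants, 5.56, 5.92 and 5.45 in cholinergic controls and 5.63, 5.51 and 9.38 in cholinergic mutants. Both overlapped between genotypes in both types.

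Of the cap-binding genes, eIF4E1, the canonical cap-binding protein, measured 9.21, 9.51 and 8.66 in dopaminergic controls and 7.24, 8.97 and 7.31 in dopaminergic mutants. In cholinergic controls it measured 8.30, 6.29 and 8.48 and in cholinergic mutants 6.78, 7.58 and 6.83. Mutants had the lower mean in both types, and controls and mutants overlapped in both (−1.29 ± 0.77 and −0.63 ± 0.77). eIF4E4 measured 6.40, 6.24 and 5.98 in cholinergic controls and 7.53, 7.23 and 7.30 in cholinergic mutants, with tight replicates and no overlap. The difference was 1.15 ± 0.58 (limma adjusted p = 0.939). In dopaminergic neurons it measured 5.92, 5.99 and 7.63 in controls and 6.97, 5.87 and 7.74 in mutants, where the groups overlapped.

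eIF4EHP, a relative of eIF4E that binds the cap without eIF4G and represses chosen mRNAs in the fly embryo, measured 6.61, 6.71 and 6.45 in dopaminergic controls and 7.10, 6.50 and 7.71 in dopaminergic mutants. Its cholinergic values were 6.27, 6.55 and 6.22 in controls and 6.59, 6.31 and 5.33 in mutants. eIF4E6 measured 5.84, 5.43 and 5.99 in dopaminergic controls, 6.19, 5.17 and 7.19 in dopaminergic mutants, 5.04, 5.73 and 5.12 in cholinergic controls and 5.33, 5.40 and 4.54 in cholinergic mutants, with its lowest value on cholinergic mutant replicate 3 and its highest on dopaminergic mutant replicate 3. eIF4E3, eIF4EHP and eIF6 had their extremes on those same arrays. eIF4E3, known for its role in the testis, and eIF4E7 never reached the median of their array. eIF4E5 did so once, at 7.94 in cholinergic control replicate 2, and otherwise stayed between 3.26 and 4.71. The untested eIF4H2 and eIF3f2 measured at most 6.49 and 5.45.

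Among the factors that act on start codon choice and subunit joining, eIF1, which keeps scanning strict, spread from 5.80 to 11.01 and eIF5, the activator of the GTPase of eIF2, from 5.13 to 11.66. Both overlapped between genotypes in both types. In dopaminergic neurons eIF5 had a mean of 9.19 in mutants and 9.37 in controls. Its difference there was 1.54 without mutant replicate 3. eIF6, which holds large subunits apart from small ones, never became bright. It measured 7.02, 6.17 and 5.72 in cholinergic controls and 5.47, 5.57 and 5.30 in cholinergic mutants, a difference of −0.85 ± 0.49.

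The effect of parkin loss was then compared between neuron types, as the mutant effect in dopaminergic minus that in cholinergic neurons. No gene passed (0.00% of all probe sets did, limma), and 3 had an unadjusted p under 0.05 (5.18% of all probe sets did), 1 of them higher (2.10%) and 2 lower (3.07%). They were eIF3g2 with a difference of effects of 2.43 ± 0.65 (limma adjusted p = 0.773), eIF4G1 with −6.32 ± 2.45 and eIF4B with −5.90 ± 2.65. Without dopaminergic mutant replicate 3 these were 2.24, −4.32 and −4.79. eIF4G1 and eIF4B then no longer had an unadjusted p under 0.05. eIF3g2 and eIF5B (4.48) did, 2 genes in all (4.23% of all probe sets did). With the title code as a block eIF4G1 gave −3.32 and eIF4B −3.03, and the mean of its probe sets gave −2.25 for eIF4B. Effects were higher in dopaminergic neurons for 13 genes and lower for 19, with a median of −0.79 against 0.26 over all probe sets. Without that array the genes split 16 to 16 with a median of −0.18, and with the title code as a block the median was 0.48, the opposite sign. eIF4A, eIF4B, eIF4G1 and eIF4G2 were all on the lower side (median −4.20), 3 of 4 without that array (median −2.99).

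**Figure D4:**
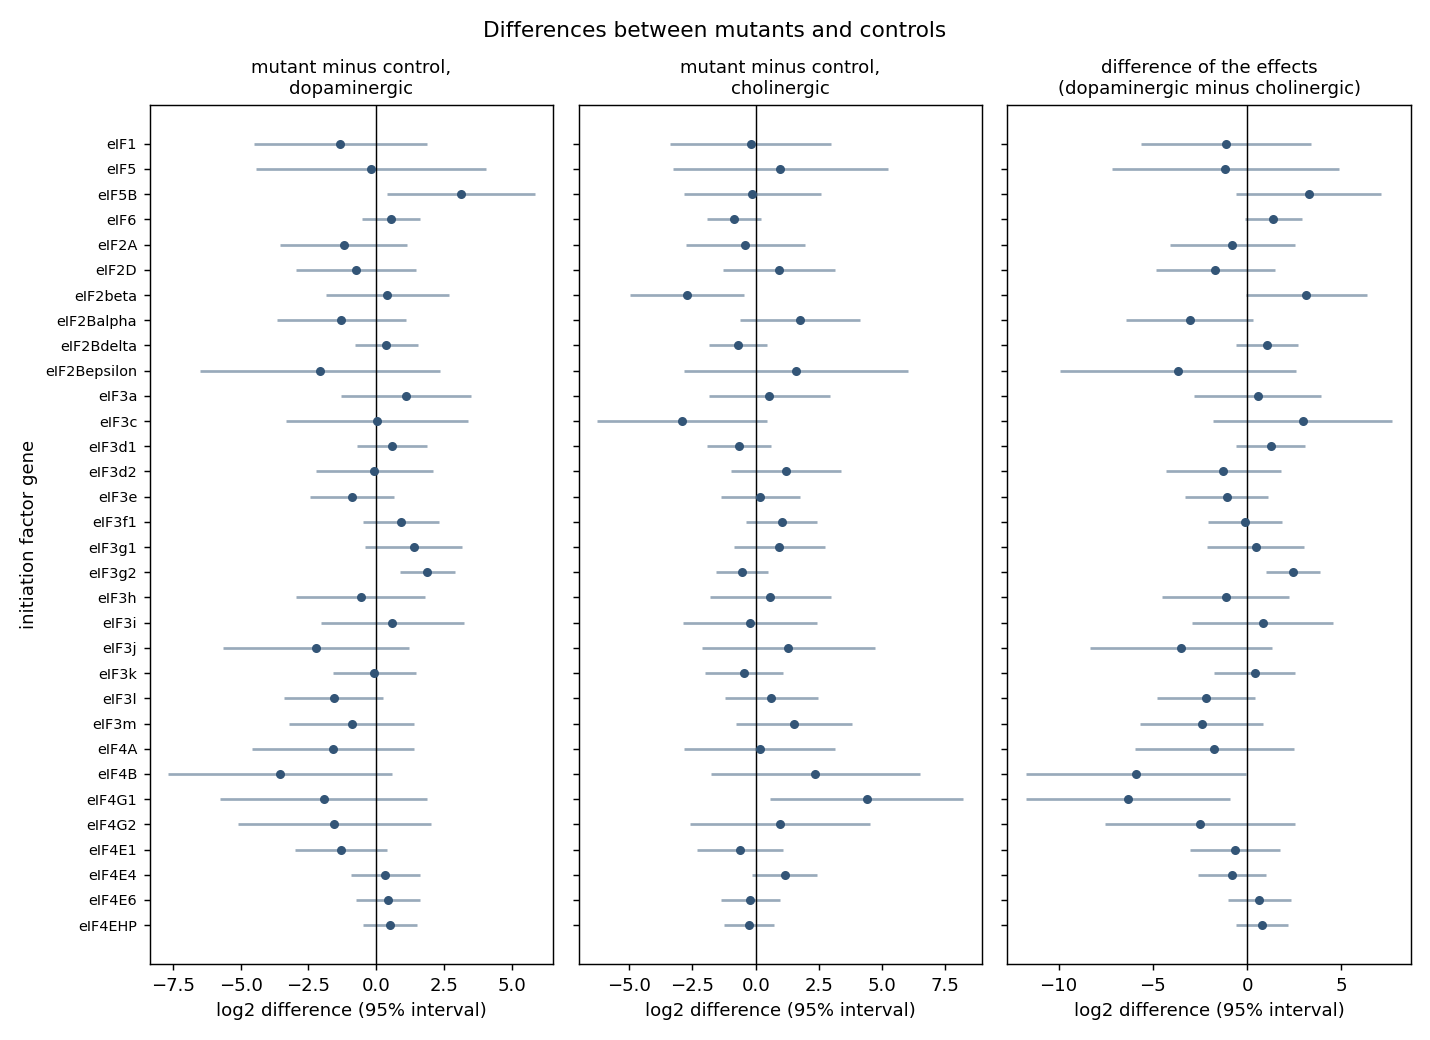
Log2 differences with 95% intervals (limma, n = 3 per group) for the 32 tested initiation factor genes, ordered by role: mutant minus control in dopaminergic neurons, the same in cholinergic neurons, and the difference of these effects. Each panel has its own scale. Most intervals include 0. Those that do not belong to eIF3g2 and eIF5B in the first panel, eIF2beta and eIF4G1 in the second, and eIF3g2, eIF4B and eIF4G1 in the last.

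Between neuron types in controls, 23 of 32 genes measured higher in dopaminergic neurons and 9 lower, with a median of 0.57 against 0.05 over all probe sets. None passed (0.00% of all probe sets did, limma) and 1 had an unadjusted p under 0.05, eIF2beta, lower (−2.31 ± 1.03, or −0.89 without cholinergic control replicate 2 and −3.63 without replicate 3). Of all probe sets 3.63% were under it, 1.96% higher and 1.67% lower. Without dopaminergic mutant replicate 3, eIF4G1 (higher) was under it and eIF2beta was not (3.65% of all probe sets were). Without overlap, 2 genes were higher, eIF4E1 and eIF4G1 (4.96% of all probe sets), and none lower (3.53%). eIF4E1 differed by 1.44 ± 0.77 and eIF4G1 by 3.15 ± 1.74. The peripheral eIF3 subunit gene eIF3l measured 9.01, 6.43 and 7.85 in dopaminergic and 5.63, 7.04 and 5.27 in cholinergic controls, a difference of 1.78 ± 0.83, or 1.16 without dopaminergic control replicate 1. In dopaminergic mutants it measured 6.73, 5.04 and 6.82 and in cholinergic mutants 7.60, 5.32 and 6.89. For eIF3g1 the difference was −1.66 ± 0.82, −0.72 without cholinergic control replicate 3, its brightest array, and −2.52 without replicate 2.

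In mutants the genes split evenly, 16 higher in dopaminergic neurons and 16 lower, with a median of −0.08 against 0.27 over all probe sets. The median was 0.03 without dopaminergic mutant replicate 3, and with the title code as a block 0.38. None passed (0.0161% of all probe sets did, limma), and 3 had an unadjusted p under 0.05 (6.16% of all probe sets did so as higher and 4.34% as lower), eIF3g2, eIF4EHP and eIF2Bdelta, all higher. The difference was 2.28 ± 0.46 for eIF3g2 (limma adjusted p = 0.264), or 2.09 without dopaminergic mutant replicate 3. It was 1.03 ± 0.45 for eIF4EHP and 1.16 ± 0.53 for eIF2Bdelta. Without dopaminergic mutant replicate 3 these were 0.72 and 0.74, and neither then had an unadjusted p under 0.05. Without cholinergic mutant replicate 3 they were 0.66 and 0.74. The second probe set of eIF4EHP gave −0.85. Both of these genes had their lowest value on cholinergic mutant replicate 3 and their highest on dopaminergic mutant replicate 3, where 40.5% and 28.8% of all probe sets had theirs. Without overlap, eIF2beta, eIF3c, eIF3g2, eIF3k and eIF6 were higher (9.22% of all probe sets) and eIF3m was lower (4.57%). Among mutant arrays, eIF2beta reached the array median on dopaminergic replicate 3 alone and eIF3c on dopaminergic replicate 2 alone. Without dopaminergic mutant replicate 3, eIF3d1 and eIF5B joined the first list, 7 genes in all (11.9% of all probe sets), and eIF3g1 and eIF4E4 joined the second, 3 genes in all (6.12%).

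Averaged over genotypes, dopaminergic neurons measured higher for 19 genes and lower for 13 (median 0.18 against 0.17 over all probe sets). None passed (0.00% of all probe sets did, limma), and 3 had an unadjusted p under 0.05 (6.61% of all probe sets did, 3.36% higher and 3.25% lower). eIF3g2 measured higher (1.06 ± 0.33, limma adjusted p = 0.672), eIF3k, another peripheral subunit, higher (1.21 ± 0.49, or 0.77 without dopaminergic control replicate 1), and eIF3g1 lower (−1.44 ± 0.58). Without dopaminergic mutant replicate 3 the genes split 22 to 10 (median 0.42 against 0.12). Then 2 had an unadjusted p under 0.05, eIF3g2 and eIF3g1 (5.37% of all probe sets did). eIF3k measured 8.83, 5.84 and 6.49 in dopaminergic controls, 6.29, 7.55 and 7.11 in dopaminergic mutants, 5.96, 6.23 and 5.94 in cholinergic controls and 5.67, 6.13 and 4.91 in cholinergic mutants. Its cholinergic arrays were close together, and its dopaminergic arrays reached into their range. Averaged over neuron types, mutants measured higher for 16 genes and lower for 16 (median −0.01 against −0.01, or 0.07 without dopaminergic mutant replicate 3), none passed (0.00% of all probe sets did, limma), and none had an unadjusted p under 0.05 (3.73% of all probe sets did, 2.03% higher and 1.70% lower). The smallest p values were those of eIF3f1 (0.97 ± 0.45), eIF3g2 (0.67 ± 0.33) and eIF3g1 (1.16 ± 0.58, or 0.73 without cholinergic control replicate 2). Without dopaminergic mutant replicate 3, eIF5B (2.11) alone had an unadjusted p under 0.05 (4.03% of all probe sets did).

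Paralogs were compared through the difference of their log2 values within each array, which removes any shift shared by the whole array. A change that differs between bright and dim probe sets stays in. On dopaminergic mutant replicate 3 the array median was the highest (6.30) and the bright share the lowest (8.67%). The part of this in the paralog values was not tested. The size of a within-array difference has no meaning between probe sets, and only its change between groups was read. For 6 pairs and 6 comparisons, 36 exact permutation tests (2-sided) were made. None passed an adjusted p of 0.05, and the smallest adjusted p was 0.72. With 3 arrays against 3, the smallest p such a test allows is 0.1, and for the averaged comparisons it is 0.005. A single test at either value could not pass after adjustment over the 36 tests. That none passed therefore does not decide whether a pair changed.

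For the subunit g pair, eIF3g1 minus eIF3g2 was −0.25, −0.29 and −0.70 in dopaminergic controls and 0.08, −1.94 and −0.88 in dopaminergic mutants. In cholinergic controls it was 1.16, −1.01 and 3.14 and in cholinergic mutants 2.86, 1.08 and 3.77. The cholinergic mutant arrays lay above all dopaminergic arrays, and the cholinergic controls spread across both. Dopaminergic minus cholinergic, averaged over genotypes, it changed by −2.50 (exact permutation p = 0.02 over 400 arrangements, adjusted p = 0.72). In mutants the change was −3.49, with no overlap (exact p = 0.1, the smallest possible). Between mutants and controls it was −0.50 in dopaminergic and 1.48 in cholinergic neurons (exact p = 0.6 and 0.5).

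For the cap-binding genes, eIF4E1 minus eIF4E4 was 3.29, 3.51 and 1.03 in dopaminergic controls and 0.28, 3.10 and −0.43 in dopaminergic mutants. In cholinergic controls it was 1.89, 0.05 and 2.51 and in cholinergic mutants −0.75, 0.35 and −0.47. Its mean was lower in mutants of both types, and the values overlapped in both. Averaged over neuron types the change was −1.70 (exact permutation p = 0.045, adjusted p = 0.72). The change was −1.07 for eIF4E1 minus eIF4E6 (exact p = 0.19) and −1.08 for eIF4E1 minus eIF4EHP (exact p = 0.115). These changes were −1.35, −0.68 and −0.79, in the order named, without dopaminergic mutant replicate 3. These 3 pairs share eIF4E1, so they are not independent.

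For the scaffold pair, eIF4G1 minus eIF4G2 was −6.40 at its lowest in cholinergic controls and 0.84, 0.61 and 1.91 in cholinergic mutants. The change of 3.44 rested on cholinergic control replicate 1, and the groups overlapped (exact p = 0.3). eIF3d1 minus eIF3d2, the pair for subunit d, changed by −1.86 to 1.75 over the comparisons, with no exact p under 0.3.

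**Figure D5:**
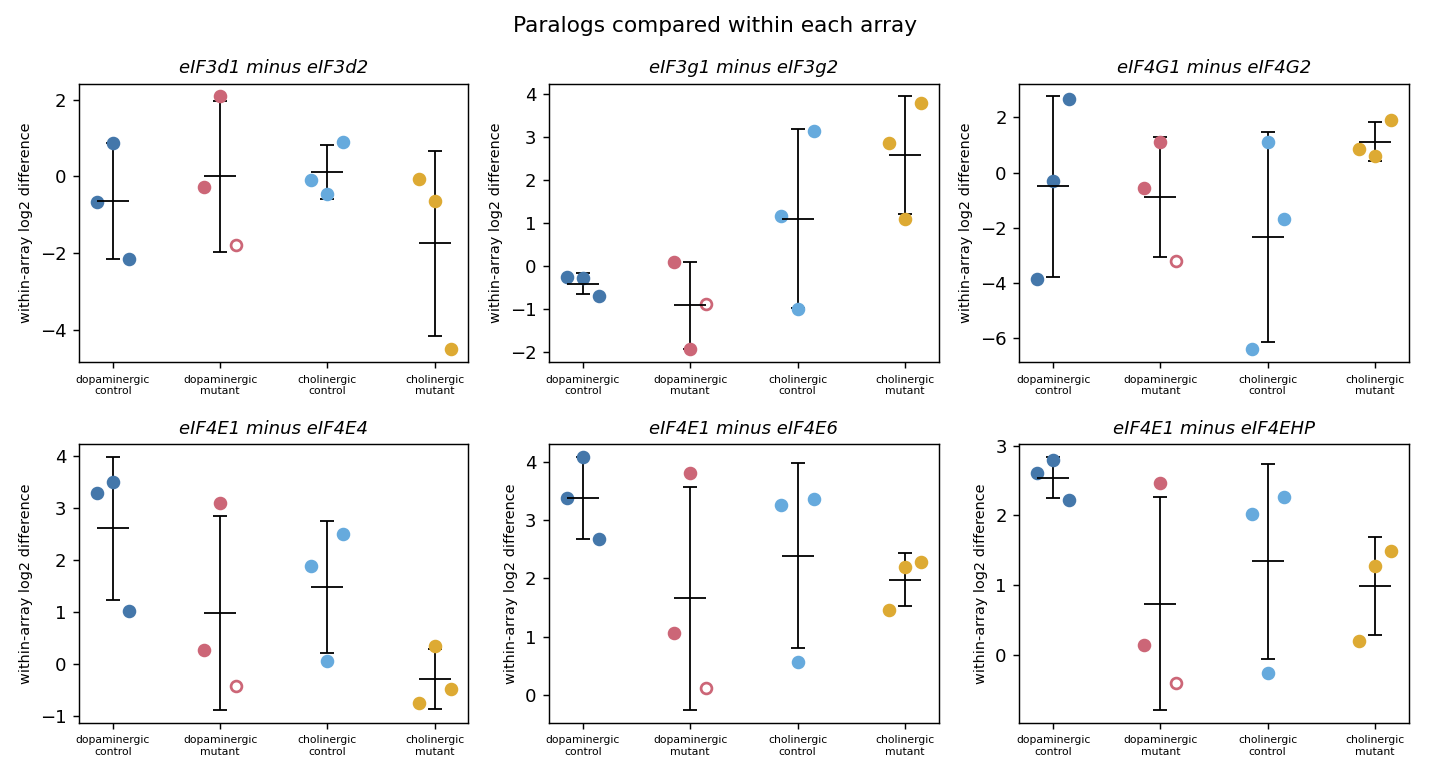
Within-array log2 difference between the 2 genes of each of 6 paralog pairs, on each array, with group mean and SD (bars, n = 3). The hollow point is dopaminergic mutant replicate 3. eIF3g1 minus eIF3g2 lies at or below 0.08 on all dopaminergic arrays and at or above 1.08 on all cholinergic mutant arrays.

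A list of 33 other translation genes (regulators of eIF4E and eIF2, elongation and release factors, poly(A)-binding proteins and RNA helicases) gave the setting. Of these, 25 had a probe set and 23 were tested. None passed in any of the 7 comparisons (limma). In dopaminergic mutants 7 measured higher and 16 lower (median −0.99, against 0.18 over all probe sets, of which 59.7% measured higher), with none at an unadjusted p under 0.05 (4.49% of all probe sets). Without dopaminergic mutant replicate 3, 9 measured higher and 14 lower (median −0.25, against −0.02 over all probe sets). In cholinergic mutants 18 measured higher and 5 lower (median 0.80, against −0.17 over all probe sets, of which 41.9% measured higher), with 1 under it (4.57% of all probe sets).

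The gene with the smallest p in both was bel, which encodes a DEAD-box RNA helicase that aids initiation on structured mRNAs. It measured 10.30, 10.64 and 10.56 in dopaminergic controls and 8.06, 9.92 and 9.01 in dopaminergic mutants. In cholinergic controls it measured 10.69, 11.53 and 9.63 and in cholinergic mutants 8.49, 9.36 and 8.35. Mutants lay below controls of their own type on every array. Of all probe sets, 2.90% were lower without overlap in dopaminergic mutants and 8.26% in cholinergic mutants. The difference averaged over types was −1.69 ± 0.54 (limma adjusted p = 1.00), with −1.51 ± 0.77 in dopaminergic and −1.88 ± 0.77 in cholinergic neurons. Next in order, the poly(A)-binding protein gene pAbp differed by −2.67 ± 1.47 in dopaminergic mutants, −0.92 without replicate 3 where it measured 3.43, and kra, a regulator of initiation that resembles part of eIF5, by 2.82 ± 1.46 in cholinergic mutants. For the difference of the effects, the smallest p values were those of eEF5 (−3.33 ± 1.38), which helps ribosomes through stalling sequences, and PPP1R15 (−3.90 ± 1.85), which directs a phosphatase to eIF2. Without dopaminergic mutant replicate 3 these were −2.60 and −3.08. eEF5 measured 8.08, 10.54 and 7.10 in dopaminergic mutants, against 9.58 to 10.41 in their controls, so it too was low on replicates 1 and 3 of that group and not on replicate 2.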

How the data were processed

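Each of 12 Affymetrix Drosophila 2.0 arrays carried amplified cDNA of 115 sorted neurons, per the labels' protocols. The authors deposited 1 log2 value per probe set and array. How they normalized and summarised the probes is not given in the sources used here. The number of arrays limits the precision. Gene names came from the platform annotation. Of 18952 probe sets, 183 controls were left out. Of the other 18769, 13646 had 1 gene symbol, 402 had several and 4721 had none.

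A probe set was tested if it reached the array median on 3 or more arrays (12460 did). All 12 arrays entered 1 limma fit (version 3.58.1, R 4.3.3; lmFit and eBayes with trend) with 7 contrasts, and p-values were adjusted by Benjamini-Hochberg over all tested probe sets. In simulated data for the comparison in dopaminergic neurons (12460 probe sets), 6.87% of changes of 2 log2 units, 47.8% of 4 and 65.9% of 6 were recovered. There each probe set's deviations from its group means were shuffled over all 12 arrays. Unequal scatter between groups and differences of whole arrays were therefore not kept, and the rates may not hold for the real arrays. Paralogs were compared by exact permutation of within-array differences. Nothing in the labels says that the pools came from separate flies or cohorts, so a p-value here reflects array-to-array spread alone, which may be technical.

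Values on every array were given for tested members of paralog pairs and for the 3 members with the smallest p in each comparison, with up to 6 more to describe a complex. Of the other translation genes, at most the 2 with the smallest p in each comparison were named. Further members were named after their values were seen. The members, the lists and the markers were chosen with earlier results of these data known. Replicate numbers follow sample order and pair nothing. The letters in the array titles (C to F) have no stated meaning. Alternatives covered scaling, filter, trend, array weights, the arrays fitted, the title letter as a block, averaging over probe sets of 1 gene and each array left out.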

Additional observations from a re-analysis of the deposited data

How the results depend on the processing

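No initiation factor gene passed an adjusted p of 0.05 when any 1 array was left out (0 to 0 genes called in each of the 7 comparisons). With array weights, 1 gene, eIF5B, passed for mutant minus control in dopaminergic neurons and 1, again eIF5B, for dopaminergic minus cholinergic neurons in mutants, against 0 in both otherwise. That fit gave a convergence warning and called 524 and 620 probe sets in all, and the cause was not tested. Over the alternatives none of 438 values of the 3 genes with the smallest p in each comparison changed sign. These values repeat 21 results. The genes were picked by p in the main fit, and the alternatives share most of its data. The count is therefore no test of them. Outside those results, other genes changed sign in dopaminergic neurons without mutant replicate 3. eIF4A, eIF4G1 and eIF5 went from lower to higher in mutants (0.41, 0.08 and 1.54 without it). eIF2Bdelta, eIF4E4 and eIF4E6 went from higher to lower (−0.04, −0.10 and −0.07). Of 90 paralog values 1 changed sign, eIF3g1 minus eIF3g2 for mutant minus control in dopaminergic neurons. It was 0.013 without dopaminergic mutant replicate 2 and −0.998 without replicate 1. For eIF3g2 in dopaminergic neurons the difference ran from 1.61 to 2.34 with 1 array left out and from 1.15 (array weights) to 2.33 under the other alternatives. With the title code as a block, the median over the initiation factor genes changed sign in both mutant comparisons and in their difference. It did so too for neuron types in mutants (values beside each result). With 1 array left out, this median ran from −0.55 to 0.05 in dopaminergic mutants and from 0.02 to 0.45 in cholinergic mutants. It ran from −0.28 to 0.09 for neuron types in mutants and from −0.13 to 0.08 for mutants averaged over neuron types. Centring the arrays moved the median of all probe sets from 0.18 to 0.04 in dopaminergic mutants, and from 0.27 to 0.05 for neuron types in mutants, where 13 initiation factor genes then measured higher and 19 lower. Of the genes with the smallest p, eIF2beta and eIF2Bdelta dropped out under the stricter filter. No paired analysis was possible because the labels carry no replicate numbers shared between groups. The title letter served as a block, and letter F held 1 array, dopaminergic mutant replicate 3. The block fit therefore sets that array aside, and is not a check separate from leaving it out. With 3 pools per group, a difference that was not called may still exist.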
